A study of Mus musculus with 5 samples.

Results

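The genes described here are Trp53, which encodes the transcription factor p53, Mdm4, which encodes an inhibitor of p53, and genes that p53 is known to switch on after DNA damage. The latter are Mdm2, Cdkn1a, Ccng1, Gadd45a, Btg2, Bbc3, Bax and Trp53inp1. They were chosen as known members of the pathway, by name and with no threshold on a measured value, and all 10 were found among the 46078 genes of each table. They were measured by RNA-seq in neural precursor cells from the subventricular zone, the stem cell niche beside the lateral ventricles of the forebrain, in 5 libraries. RNA was taken 1 h after a PBS sham exposure in 2 libraries (replicates 1 and 2) and 8 h after it in 3 libraries (replicates 13, 14 and 15). The labels give the same description for both groups: primary cells of adult female C57BL/6 mice, aged 5 to 8 weeks, with no mutation, kept on plates coated with PDL. Per the study's methods, 1 biological replicate of subventricular zone cells was 1 animal. Those methods give the animals an age of 3 to 5 months, which differs from the labels. The comparison the labels allow is time after the sham exposure alone, and cells exposed to hydrogen peroxide were not analysed here.

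In most cells p53 protein is made all the time and is destroyed as fast as it is made, because Mdm2 tags it for degradation and Mdm4 blocks its activity. DNA damage or other stress frees p53, which then switches on genes that halt the cell cycle (Cdkn1a), repair DNA (Gadd45a) or kill the cell (Bax, Bbc3), and also Mdm2, which closes a feedback loop. In the subventricular zone p53 is known for limiting the self-renewal of neural stem cells. Since p53 is controlled largely at the level of its protein, mRNA levels show the Trp53 transcript and the output of the targets, not the amount of active protein.

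The promoter letters of these genes are shown first because p53 acts on its targets by binding a site made of a pair of 10-base half-sites. The RefSeq promoters on GRCm38.p6, each 300 bases long from 250 bases before the transcript start to 50 bases after it, held 13 promoters of 9 of the 10 genes. Trp53inp1 had no entry. The consensus p53 site of 20 bases with at most 1 mismatch, none of them in its 4 fixed C and G positions and with no spacer, was searched. It reads the same on both strands. Of all 32851 promoters 22 held it (0.0670%), and among the 13 promoters of the p53 genes it stood in 1 promoter of Cdkn1a and 1 of Ccng1. Among the other genes with the site were Gtse1 and Rps27l, which belong to the wider list of p53 targets described further on. In the lines that follow capitals mark the site.

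Cdkn1a, chr17:29090903-29090972, plus strand: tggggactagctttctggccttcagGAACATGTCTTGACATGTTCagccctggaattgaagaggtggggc
Ccng1, chr11:40755437-40755506, minus strand: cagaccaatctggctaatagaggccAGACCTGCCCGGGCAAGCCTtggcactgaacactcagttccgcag

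The Cdkn1a site began 51 bases before the transcript start and the Ccng1 site 195 bases before it. The Cdkn1a start is the outermost one, at which the tables begin the gene (chr17:29090979), and the distance holds for this start only. Which transcript start the cells used was not examined. A single half-site with no mismatch was far more common and stood in 2745 of all promoters (8.36%) and in 6 of these 13, including those inside both full sites. The other 4, shown with the half-site in capitals to set a lone half-site beside a full site, belonged to Mdm2, Trp53, Bax and Gadd45a.

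Mdm2, chr10:117710910-117710969, minus strand: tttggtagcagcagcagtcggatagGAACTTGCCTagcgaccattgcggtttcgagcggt
Trp53, chr11:69580259-69580318, plus strand: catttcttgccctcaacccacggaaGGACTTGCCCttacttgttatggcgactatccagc
Bax, chr7:45467065-45467124, minus strand: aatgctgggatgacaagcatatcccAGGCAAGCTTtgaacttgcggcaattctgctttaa
Gadd45a, chr6:67037413-67037472, minus strand: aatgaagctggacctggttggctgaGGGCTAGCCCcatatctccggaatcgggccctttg

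A match describes letters and not a bound site, and p53 binding was not measured. The windows leave out introns, where other known p53 sites lie.

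Some libraries went against their labels and touch every result that follows. All 5 were labelled female, but the 3 libraries that share one series of identifiers in the labels (both 1 h replicates and 8 h replicate 14, series 1) held 138 to 181 TPM of 4 Y-linked genes and at most 0.0611 TPM of Xist, whereas 8 h replicates 13 and 15 (series 2) held 165 and 200 TPM of Xist and at most 0.0253 TPM of the Y-linked genes. TPM is a transcript's share of a library per unit of transcript length, scaled to the same total in each library. The sum of 6 proliferation genes was 655 to 719 TPM in series 1 and 1258 and 1340 TPM in series 2, and the mitochondrial share of TPM was 10.7% to 11.1% against 6.23% and 6.30%. Series 2 held 8 h libraries only, so time and series can be told apart only within series 1, through 8 h replicate 14. A mean of 1 TPM was reached by all 10 neural precursor markers, 6 of 6 markers of mature astrocytes, 6 of 6 of neurons, 6 of 7 of the oligodendrocyte lineage, 2 of 5 of endothelium, 1 of 4 of ependyma and 0 of 7 of microglia. The summed astrocyte markers were 585 to 711 TPM in series 1 and 1007 and 1018 TPM in series 2. Their part in the results was not tested. Fewer cells of a type and less RNA per cell cannot be told apart in such bulk libraries.

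All 10 genes were expressed, at mean levels from 11.0 TPM for Gadd45a to 659 TPM for Cdkn1a. In order of mean TPM, Cdkn1a was followed by Ccng1 (547 TPM), Bax (532 TPM), Trp53inp1 (182 TPM), Mdm2 (97.7 TPM), Btg2 (91.4 TPM), Trp53 (89.6 TPM), Mdm4 (51.1 TPM), Bbc3 (26.4 TPM) and Gadd45a. The ranges over the 5 libraries overlapped between Ccng1 and Bax and among Mdm2, Btg2 and Trp53. Library by library, Ccng1 exceeded Bax in 3 of 5, Mdm2 exceeded Btg2 in 4 and Btg2 exceeded Trp53 in 3. None of these orders held in every library. The lowest Cdkn1a value (607.4 TPM) lay just above the highest Ccng1 value (606.8 TPM). The top of this order depends on the measure, since the deposited mean coverage per base, scaled for depth, put both Ccng1 and Bax above Cdkn1a. That coverage is not on 1 scale across genes. Over FPKM, another length-scaled measure, it was 1.40 for Cdkn1a and 5.57 for both Ccng1 and Bax in 1 h replicate 1. The highest library of a gene was 1.21 to 1.69 times its lowest, with Gadd45a at the upper end. Cdkn1a lay at the 98.6th percentile of the 13870 genes with a mean of at least 1 TPM and Gadd45a at the 33.5th, and the median percentile of the 10 genes was 86.5.

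**Figure D1:**
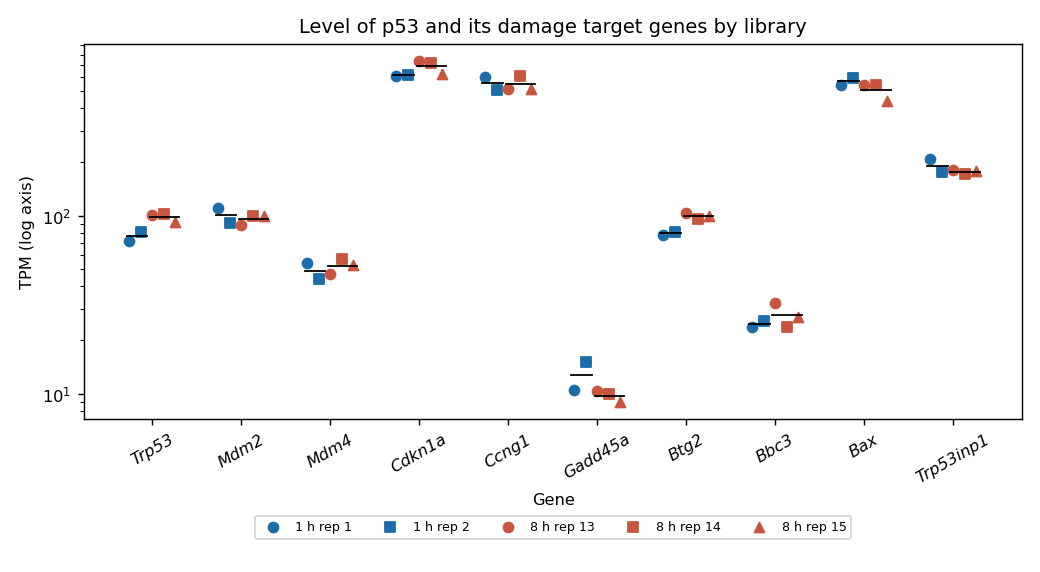
TPM on a log axis of each gene (x axis) in the 2 libraries taken at 1 h (blue) and the 3 taken at 8 h (red), with black lines at the group means. Cdkn1a, Ccng1 and Bax sit highest, between 441 and 736 TPM, and for no gene do the groups lie far apart.

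None of the 10 genes passed the test of 8 h against 1 h across all genes. The test was limma on log2(TPM + 1), which understates the change of low genes, and a call required both an adjusted p no higher than 0.05 and a log2 fold change beyond 1 in either direction. It called 0 of the 10 genes, against 6 of 13870 genes tested (0.0433%). The lowest adjusted p among the 10 was 0.328. The median log2 fold change of the 10 genes was 0.04 and that of all genes tested 0.10, with 5 of the 10 above and 5 below 0. After rescaling of the TPM columns by the median ratio over genes, the medians were -0.0706 and 0.00, with 4 of the 10 above 0. The 95% intervals of all 10 lay between -0.79 and 0.61, so a 2-fold change in either direction lay outside the interval of each gene in this fit of all 5 libraries. Without 1 h replicate 1 the interval of Gadd45a, from -1.09 to -0.08, took in a 2-fold fall, and the estimate of Bbc3 in the count table, given further on, had a wider error. At an unadjusted p under 0.05 were 2 of the 10 genes, Trp53 and Btg2, against 1712 of all genes (12.3%).

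**Figure D2:**
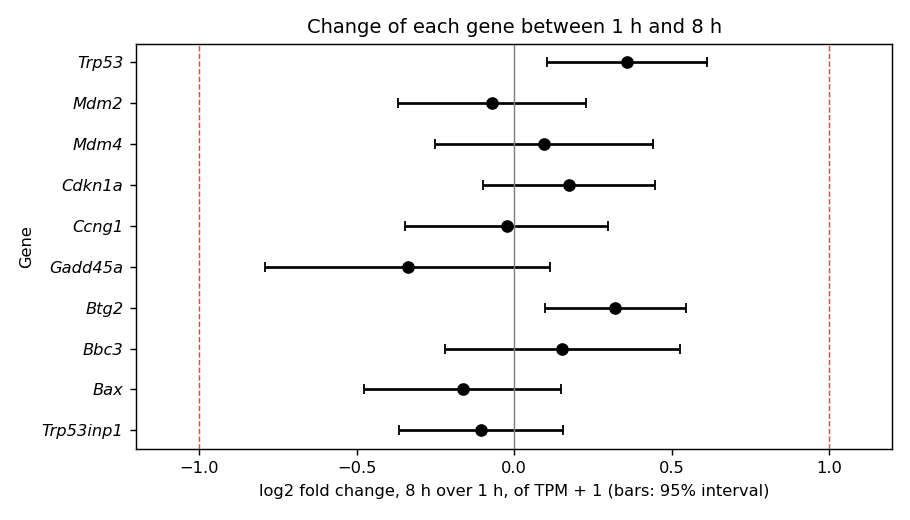
Log2 fold change of TPM + 1 at 8 h over 1 h (x axis) for each gene (y axis), with points for the estimate and bars for its 95% interval from limma over 2 and 3 libraries. Dashed lines mark the size of change a call required, and no interval reaches either line.

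**Figure D3:**
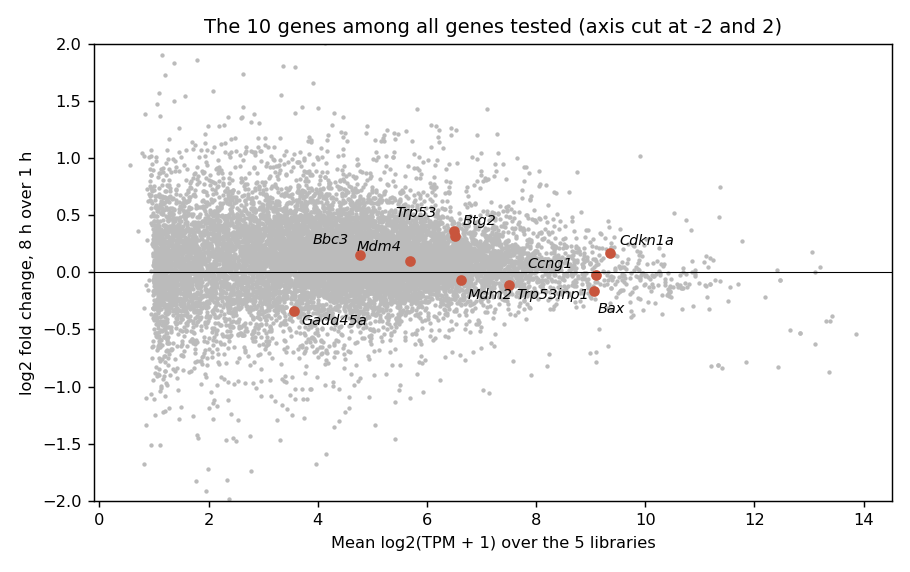
Log2 fold change at 8 h over 1 h against mean log2(TPM + 1) for the 13870 genes tested (grey) and the 10 genes (red, named), with 24 genes beyond the plotted range. The red points lie inside the cloud, between -0.34 and 0.36.

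Trp53, the gene of p53 itself, had levels of 71.8 and 81.2 TPM at 1 h and of 100.6, 101.7 and 92.5 TPM at 8 h (replicates 13, 14 and 15). Every 8 h library lay above both 1 h libraries, the 8 h library of series 1 included. Such a separation upward was shared by 3 of the 10 genes and by 23.7% of all genes tested, and downward by 2 of the 10 and by 9.43%. The log2 fold change of Trp53 was 0.36 ± 0.10 (SE), with a limma adjusted p of 0.334, and within series 1 it was 0.41 ± 0.13 (adjusted p = 0.595), a fit with a single 8 h library, whose spread was taken from that of 1 h. When the TPM columns were rescaled by the median ratio over genes, which lowers the median of all genes from 0.10 to 0.00, it was 0.25 ± 0.12.

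The inhibitors of p53 differed less from 1 h to 8 h than their replicates did among themselves. Mdm2, the ubiquitin ligase that is both inhibitor and target, had 111 and 91.0 TPM at 1 h, against 88.5, 98.9 and 99.4 TPM at 8 h, a log2 fold change of -0.07 ± 0.12. Mdm4, its relative that masks the activation domain of p53, had 54.4 and 43.8 TPM at 1 h, against 47.0, 57.1 and 53.1 TPM at 8 h (log2 fold change 0.10 ± 0.14, and -0.01 after rescaling). Both groups overlapped for each gene. Mdm2 stood at 2.03 and 2.08 times Mdm4 at 1 h and at 1.88, 1.73 and 1.87 times at 8 h. Relative to Trp53, Mdm2 stood at 1.54 and 1.12 times at 1 h and at 0.880, 0.972 and 1.07 times at 8 h, and neither ratio overlapped between the times. Of 5 ratios compared, 4 were lower in every 8 h library than in either 1 h library, those of Cdkn1a to Trp53 and of Bax to Bbc3 included. The 4 are not independent, since Mdm2 and Trp53 each enter more than 1 of them. How many other pairs of genes separate in this way was not examined, so the count has no share to stand against. An exact two-sided permutation test gave each of the 4 p = 0.2, the smallest that 2 against 3 libraries allow, and 0.25 after adjustment over the 5. The ratio of Cdkn1a to Ccng1 overlapped (p = 0.6, exact permutation test).

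Of the 3 targets with the highest levels, Cdkn1a and Ccng1 act on the cell cycle, and neither passed the test. Cdkn1a encodes p21, an inhibitor of cyclin-dependent kinases, and had 607 and 615 TPM at 1 h, against 736, 719 and 619 TPM at 8 h. The lowest 8 h value, in replicate 15, exceeded the higher 1 h value by less than the 8 h libraries differed among themselves, and the log2 fold change was 0.17 ± 0.11 (limma adjusted p = 0.495). Ccng1 encodes cyclin G1, a p53 target that acts back on Mdm2, and its values overlapped, with 603 and 504 TPM at 1 h and 513, 607 and 512 TPM at 8 h. Its log2 fold change was -0.02 ± 0.13. The promoter search that set these genes apart was made after their values were known.

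Btg2, an antiproliferative gene that also marks neural precursors about to divide into neurons, had 77.8 and 81.0 TPM at 1 h, against 104, 95.3 and 99.3 TPM at 8 h. The groups did not overlap, and the spread within each was narrow. Its log2 fold change of 0.32 ± 0.09 had the lowest adjusted p of the 10 genes (0.328, limma). Without 8 h replicate 14 time and identifier series divided the libraries alike, and 2759 of 13870 genes reached the adjusted p a call required. Btg2 was among them, with a limma adjusted p of 0.0407 at a log2 fold change of 0.35, below the size a call required. Within series 1 the log2 fold change was 0.26 ± 0.11 (adjusted p = 0.675).

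Gadd45a, which acts in growth arrest and DNA repair, had the lowest level of the 10 and the widest interval. Its levels were 10.4 and 15.1 TPM at 1 h and 10.3, 10.02 and 8.96 TPM at 8 h. The groups did not overlap, but 1 h replicate 1 lay close to the highest 8 h library and 1 h replicate 2 set most of the difference. The log2 fold change was -0.34 ± 0.18 with both 1 h libraries, -0.59 ± 0.20 without 1 h replicate 1 and -0.09 ± 0.20 without 1 h replicate 2, with limma adjusted p of 0.457, 0.786 and 0.893. A noncoding gene on the opposite strand, E230016M11Rik, overlaps Gadd45a and had a mean of 2.89 TPM.

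Of the cell death targets Bax was the abundant one and Bbc3 the scarce one. Bax, whose protein opens the outer mitochondrial membrane, had 542.8 and 592 TPM at 1 h, against 541, 542.6 and 441 TPM at 8 h. The groups failed to overlap only because 542.6 lies just under 542.8, and the log2 fold change was -0.16 ± 0.13. Replicate 15 set much of it, since the estimate was -0.06 without that library and also within series 1, and it was -0.27 after rescaling. Bbc3 encodes PUMA, a BH3-only protein that frees Bax, and had 23.6 and 25.5 TPM at 1 h, against 32.1, 23.8 and 26.9 TPM at 8 h (log2 fold change 0.15 ± 0.15). Its 8 h values overlapped those at 1 h, and the highest came from replicate 13. The estimate was 0.04 without replicate 13 and 0.25 without replicate 14. Bax stood at 22.8 to 23.2 times Bbc3 in the 3 libraries of series 1 and at 16.4 and 16.8 times in the 2 of series 2. The 8 h library of series 1 stood close to both 1 h libraries, though just below them. Trp53inp1, a nuclear protein that promotes p53-dependent cell death and also takes part in autophagy, had 207 and 174 TPM at 1 h, against 180, 170 and 178 TPM at 8 h (log2 fold change -0.11 ± 0.11), and its groups overlapped.

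One column of the deposited count table stood apart. The table listed 8 of the 10 genes, without Trp53 and Mdm4, among 7599 genes with column totals of 13988166 to 18572154 reads. Before it was used, its columns were set against the TPM tables. Each 1 h column had 78.0% of 6860 genes within 0.1 log2 units of the TPM table of the same name. The column named 8 h replicate 13 matched the table of replicate 14 (78.3%) and the column named 8 h replicate 15 that of replicate 13 (76.9%). For the remaining 8 h column, named replicate 14, no table fitted, with 38.2% at most. The TPM table of replicate 15 in turn fitted no column, with 40.9% at most. The columns named 13 and 15 thus match tables named 8 h. A match cannot tell whether the column or the table is misnamed. Every TPM result, those within series 1 included, takes the tables by their names. Neither the time nor the series of the column named 14 could be checked, and every count result that follows takes it as 8 h from its name.

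In the column named 8 h replicate 14, all 8 listed genes had their highest value, whereas 26.9% of all 7587 genes compared did. The values are CPM, the reads of a gene scaled to the column total. Bbc3 had 22.6 and 28.5 CPM at 1 h and 19.5, 66.0 and 34.1 CPM in the 8 h columns 13, 14 and 15. Btg2 had 151 and 160 CPM at 1 h and 185, 312 and 185 CPM at 8 h. Both stood out in the column named 14, where Bbc3 reached 1.93 times its next highest column. Trp53inp1 reached 1032 CPM there against 634 to 754 CPM elsewhere. Mdm2 reached 331 CPM against 195 to 249 CPM. Cdkn1a had 713 and 732 CPM at 1 h and 863, 1003 and 817 CPM at 8 h, with all 3 columns above both of 1 h. Gadd45a was the least counted, with 154 to 258 reads a column and 17.8 CPM in this column against 9.88 to 13.6 CPM. Bax had 440 CPM against 326 to 394 CPM. For Ccng1 the excess was slight, at 1509 CPM against 1507 CPM in the column named 13, and under median-ratio scaling of the columns 7 of the 8 genes had their highest value in the column named 14, against 23.0% of all genes.

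The median log2 difference of that column from the mean of the others was 0.60 over the 8 genes and 0.02 over all genes. The TPM table of 8 h replicate 14 showed no such excess, with 0.06 over the 10 genes and -0.04 over all. Of 8 listed relatives of these genes 7 also had their highest value in the column, with a median difference of 0.46. Of 22 other p53 targets 8 did (36.4%), near the 26.9% of all genes, with a median of 0.07. As many of the 22 were highest in the column named 15. Of 8 listed regulators of p53 2 were highest in the column named 14 (median -0.08), and of 5 proliferation genes 0. Which cells this column came from cannot be told from the files.

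**Figure D4:**
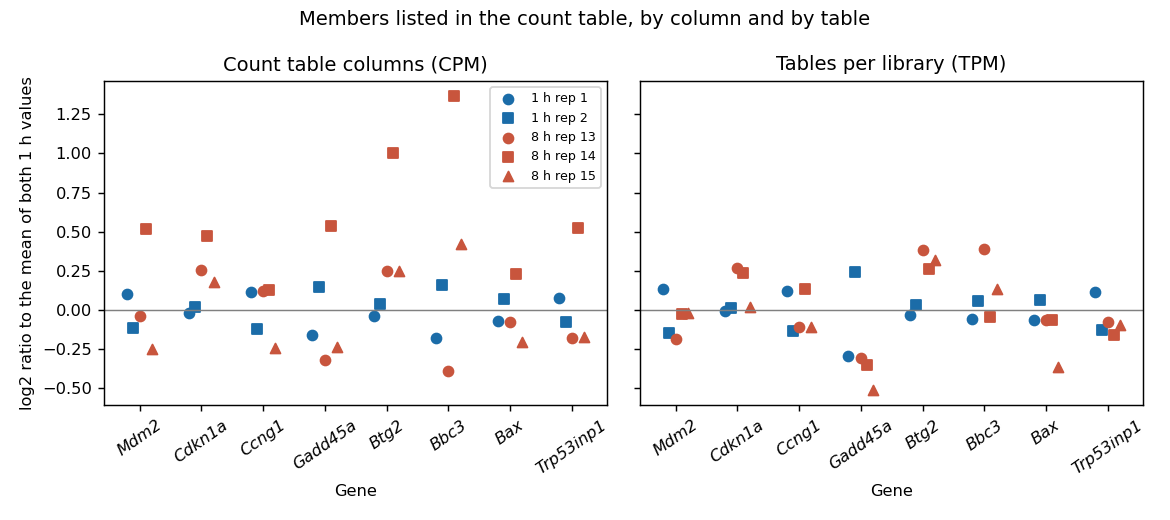
Log2 ratio to the mean of both 1 h values (y axis) for the 8 genes listed in the count table (x axis), in the count columns as CPM (left) and in the tables per library as TPM (right). Red squares, named 8 h replicate 14, stand highest for all 8 genes on the left, with Ccng1 level with 8 h replicate 13, and do not on the right.

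With this column among the 3 of 8 h, edgeR called 0 of the 8 genes and 0 of 7590 genes tested (0%). At an unadjusted p under 0.05 by edgeR were 0 of the 8 and 199 of the 7590 genes. By DESeq2 these were 2 of the 8 (Btg2 and Cdkn1a) and 227 of 7599 genes, with 0 called. The edgeR log2 fold changes ran from -0.03 ± 0.15 for Bax to 0.61 ± 0.48 for Bbc3, and their median was 0.08. With that column left out the median fell to -0.11, Bbc3 stood at 0.05 ± 0.29, and 3 of the 8 genes were above 0 in place of 6. A further edgeR fit took the identifier series as a term, coded from the column names. The column named 13 thus entered as series 2, though it matched the table named replicate 14, which the labels place in series 1. The term therefore does not adjust for the series that the names of the matched tables give. In this fit the column named 14 alone sets the difference. All 8 estimates were above 0, with a median of 0.48, against 0.00 for all genes tested. In that fit Bbc3 stood at 1.33 ± 0.35, Btg2 at 0.97 ± 0.11 in place of 0.52 ± 0.24, and Gadd45a at 0.50 ± 0.23 in place of 0.01 ± 0.31.

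Other genes of the pathway were read from the same limma fit of the TPM tables. Of 25 further p53 targets, all tested, 0 were called. At an unadjusted p under 0.05 were 4 with a higher and 0 with a lower estimate at 8 h, against 9.52% and 2.82% of all genes tested. All 8 h libraries lay above both 1 h libraries for 10 of the 25 and below them for 1, against the 23.7% and 9.43% of all genes given above. Their median log2 fold change was 0.24, against 0.10 for all genes. The estimates highest in this list were those of Gtse1 and Ckap2, genes of the dividing cell, which had 41.7 to 45.7 TPM and 76.9 to 85.3 TPM in series 1 and 82.1 to 90.7 TPM and 158 to 161 TPM in series 2, beside the difference in proliferation genes given above. Both were chosen after their values were seen. The part of proliferation in the list was not tested.

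The most abundant of these targets were Rps27l (751 TPM), a ribosomal protein paralogue, Ei24 (249 TPM), an endoplasmic reticulum protein, and Plk2 (196 TPM), a polo-like kinase. Rps27l carries the full site in its promoter, as Cdkn1a and Ccng1 do, and its log2 fold change was -0.16 ± 0.13. The lowest unadjusted p values belonged to Tigar, a regulator of sugar phosphate metabolism, Polk, a DNA polymerase that copies past damage, and Tnfrsf10b, a death receptor. Tigar had 7.67 and 7.39 TPM at 1 h, against 12.04, 10.5 and 11.5 TPM at 8 h (log2 fold change 0.53, adjusted p = 0.300). Polk had 13.9 and 11.1 TPM at 1 h, against 16.5, 19.6 and 17.0 TPM at 8 h (0.47, adjusted p = 0.369). Tnfrsf10b had 23.6 and 20.4 TPM at 1 h, against 30.7, 26.8 and 26.6 TPM at 8 h (0.34, adjusted p = 0.390). All 3 were higher in each 8 h library than in either 1 h library, replicate 14 of series 1 included, and none passed the test.

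**Figure D5:**
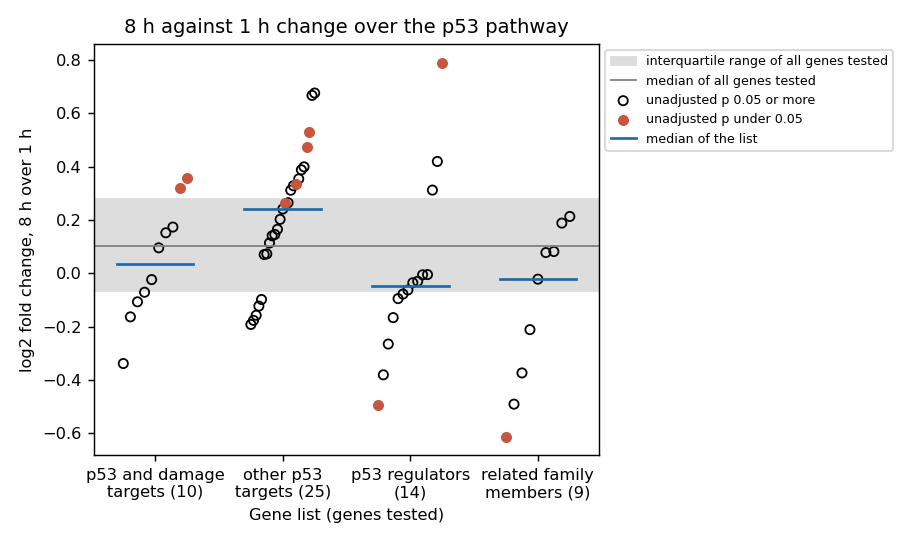
Log2 fold change at 8 h over 1 h (y axis) of every gene tested in 4 lists (x axis), filled where the unadjusted limma p was under 0.05, with blue lines at list medians and a grey band over the interquartile range of all genes tested (-0.07 to 0.28). The median of the 25 other targets is 0.24 and those of the remaining lists lie between -0.05 and 0.04.

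Among 14 regulators of p53 found and tested, 0 were called, 1 had an unadjusted p under 0.05 with a higher and 1 with a lower estimate (12.3% of all genes in either direction), and the median log2 fold change was -0.05. Cdkn2a, which encodes the Mdm2 inhibitor ARF as well as p16, was the most abundant, with 126 and 164 TPM at 1 h and 150, 116 and 140 TPM at 8 h, and its groups overlapped. Usp7, a deubiquitinase of Mdm2 and p53, had a mean of 111 TPM and Rchy1, another ubiquitin ligase of p53, 57.7 TPM. Chek2, a DNA damage kinase that acts on p53, had 14.0 and 12.5 TPM at 1 h, against 29.0, 14.9 and 30.4 TPM at 8 h (log2 fold change 0.79, adjusted p = 0.402). Its high values were those of series 2, and replicate 14 of series 1 stood close to the 1 h libraries. Crebbp, an acetyltransferase of p53, had 23.6 and 22.7 TPM at 1 h, against 13.6, 19.8 and 15.6 TPM at 8 h (-0.49, adjusted p = 0.380). Hipk2, a kinase of p53, had a log2 fold change of -0.27 (adjusted p = 0.433).

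Of the 11 genes of the same families, 9 were tested and 0 called, and their median log2 fold change was -0.02. Trp63 and Trp73, the relatives of Trp53, were nearly silent, at 0.0236 and 0.0285 TPM on average. Btg1, a relative of Btg2, had its estimate on the other side of 0, with 32.2 and 33.9 TPM at 1 h and 21.2, 22.8 and 19.9 TPM at 8 h, and no overlap (log2 fold change -0.61, limma adjusted p = 0.262). Ccng2 had a log2 fold change of -0.37 (adjusted p = 0.444) and Gadd45b, at a mean of 3.31 TPM, of -0.49 (adjusted p = 0.475). The most abundant relatives were Trp53inp2 (191 TPM), Cdkn1b (77.8 TPM), which encodes the kinase inhibitor p27, and Bak1 (68.5 TPM), which opens the mitochondrial membrane as Bax does. Cdkn1a stood above Cdkn1b in every library.

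The genes whose pattern over the 5 libraries was most like that of Cdkn1a were Fam193b, Nrbp1, Sall1, Slc5a6 and Tefm. Their log2(TPM + 1), centred on its mean, differed from that of Cdkn1a by a root mean square of 0.0218 to 0.0373, against a median of 0.193 over 11090 genes with a mean of at least 5 TPM. Cdkn1a itself varied by 0.121 about its mean, so a likeness over 5 libraries rests on a small range.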

How the data were processed

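The authors aligned reads of stranded, poly-A selected libraries to GRCm38 with STAR and counted them with featureCounts. The deposited read counts are not normalized, and the table is filtered by a rule not given in the sources used here. For each library the authors also deposited TPM, FPKM and mean coverage per gene. TPM was summed per gene identifier. Coverage over FPKM served only to scale coverage for depth.

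The members and lists were chosen with earlier results of these data known. TPM was tested with limma 3.58.1 (R 4.3.3) (eBayes with trend) on log2(TPM + 1) for every gene whose mean reached 1 TPM, and counts with edgeR 4.0.16 (quasi-likelihood, TMM, filterByExpr). DESeq2 1.42.0 (alpha 0.1) was an alternative. Both are two-sided with Benjamini-Hochberg adjustment over all genes tested. The study's thresholds for its other RNA-seq data were used. Both tests were checked on simulated data. No other value columns were left over (0).

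Genes named were all 10 members, and from each list of further targets, regulators and relatives the genes called, the 3 with the highest mean TPM and the 3 with the lowest unadjusted p. For Cdkn1a the 5 genes of most similar pattern were named. Genes named outside this rule are said to be so or carry a promoter site or marker. Alternatives were pseudocount 0.1, no filter, other scaling, the identifier series as a term, series 1 alone and leaving out each library. Scaled coverage in place of TPM was added after the data were seen, as was the promoter search. One regulator on the list, Cop1, was not found by its symbol. P-values measure the spread between these libraries.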

Additional observations from a re-analysis of the deposited data

How the results depend on the processing

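No member was called under any alternative tried, in either kind of table. In the TPM tables the number of genes called, 6, was 19 with the identifier series as a term and 0 without the filter, and ran from 0 to 568 when 1 library was left out, the highest without 8 h replicate 14. The cause was not tested, except that without that library time and series divide alike. The median log2 fold change of the members, 0.04, was -0.0706 with median-ratio scaling, -0.0202 with scaled coverage in place of TPM, and -0.0737 to 0.102 with 1 library left out. Members near 0 changed sign. In the TPM tables Mdm4 was -0.01 with median-ratio scaling, and Bbc3 was -0.0449 and Ccng1 0.14 with the series as a term and again within series 1. With 1 library left out Mdm2 ran from -0.211 to 0.0691, Ccng1 from -0.153 to 0.11, Trp53inp1 from -0.228 to 0.0147 and Mdm4 from -0.0572 to 0.249. In the count table Bax was 0.19 and Ccng1 0.0891 with the series, coded from the column names, as a term. The median of the 8 members listed was then 0.48 in place of 0.08. There, with 1 column left out, Ccng1 ran from -0.12 to 0.11, Bax from -0.154 to 0.0608, Gadd45a from -0.292 to 0.182, Mdm2 from -0.153 to 0.241 and Trp53inp1 from -0.188 to 0.192. The cause was not tested. The members' values kept their direction in 99 of 110 comparisons with an alternative by TPM and in 61 of 72 by counts. No paired analysis was possible because the groups share no replicate numbers.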

Other observations

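Trp53cor1, a noncoding RNA gene that lies upstream of Cdkn1a and is known as a p53 target, was measured at 9.76 and 9.80 TPM at 1 h and at 6.86, 11.2 and 5.54 TPM at 8 h. Its 3 highest values were those of identifier series 1. The pseudogene Trp53-ps, a copy of Trp53, was listed at 0 in 4 libraries and at 0.554 TPM in 8 h replicate 15, and Mdm4-ps at 0.0606 to 0.124 TPM. Gm29257, on the opposite strand of Mdm4, had a mean of 1.73 TPM.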
